A study of Mus musculus with 25 samples.

Results

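Myeloid cells carrying CD11b, an integrin subunit of monocytes, macrophages and neutrophils, were sorted from mouse kidneys by surface Ly6C, and the cells of the Ly6C Intermediate gate at 9 days of reperfusion are compared here with those of the same gate at 24 h. The 9 day group held 3 arrays (replicates 8, 9 and 13) and the 24 h group 3 arrays (replicates 7, 8 and 9), which is 6 of the 25 arrays of the series, chosen by their time and gate labels. All 6 arrays came from male C57BL/6 mice aged 8 to 10 weeks whose renal vessels had been clamped on both sides for 28 min. Every mouse was given saline and buprenorphine, and no allele or drug differed between the groups. The labels name 1 array per animal and gate. Their RNA, too little for direct labelling, went through a kit that amplifies picogram inputs over the whole transcriptome before it was put on Affymetrix arrays of 45101 probe sets.

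Ly6C is high on classical monocytes, which enter injured tissue from the blood through the chemokine receptor Ccr2 and carry transcripts of inflammatory mediators. As such cells mature in tissue they lose Ly6C and take up macrophage functions such as clearance of dead cells and presentation of antigen on MHC class II. Neutrophils also carry CD11b and some Ly6C, so their granule transcripts can appear in an Intermediate gate. The comparison asks how the content of the same gate differs between the early inflammatory and the later repair phase of kidney injury. In such sorted samples fewer cells of a type and less RNA per cell cannot be told apart.

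The 3 arrays of the 9 day group did not measure equally well. The share of probe sets called present (P, the deposited detection call, beside M for marginal and A for absent) was 3.29%, 25.5% and 4.67% on 9 day replicates 8, 9 and 13, against 19.2%, 10.1% and 11.4% on 24 h replicates 7, 8 and 9. The means were 11.1% ± 12.4 at 9 days and 13.6% ± 4.96 at 24 h (SD, n = 3 each), and an exact two-sided permutation test gave p = 0.7, where 3 against 3 cannot go below 0.1. Replicates 8 and 13 are called the arrays of low yield below. Their 3' to 5' signal ratio for actin was 51.8 and 22.1, against 2.00 on 9 day replicate 9 and 2.22 to 6.45 on the 24 h arrays. The same ratio for Gapdh did not set them apart. It was 0.92 and 8.16, against 2.33 on 9 day replicate 9 and 3.30 to 10.0 on the 24 h arrays. Between arrays, log2 values correlated at 0.51 to 0.66 among the 9 day arrays and at 0.74 to 0.78 among the 24 h arrays, where all arrays share the same genes. Replicate 9 correlated at 0.68 to 0.77 with the 24 h arrays, and replicates 8 and 13 at 0.56 to 0.62.

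The gate marker was not measured on every 9 day array. The single probe set for both Ly6c1 and Ly6c2 was at 5.27 (A), 10.92 (P) and 5.01 (A) in log2 units on 9 day replicates 8, 9 and 13, against 10.99, 11.14 and 11.23, all P, on the 24 h arrays. Only replicate 9 showed the signal of the label among the 9 day arrays. Itgam, which encodes CD11b, was called P on 0 of the 3 arrays at 9 days (2.71 to 2.93) and on 3 at 24 h (2.14 to 5.52). Csf1r, the receptor of the macrophage growth factor CSF1, was called P on all 6 arrays, at 10.65, 13.56 and 11.10 at 9 days, against 9.65, 12.17 and 10.50 at 24 h. Ptprc, the leukocyte marker CD45, was at 5.10 (A), 10.95 and 12.38 at 9 days, against 11.58, 11.80 and 10.60 at 24 h. Cd68, a macrophage lysosomal protein, was at 4.47 (A), 11.64 and 2.69 (A) at 9 days, against 9.92, 10.15 and 10.02 at 24 h. Lists and called genes are therefore given for the 3 arrays against 3 and, as a second reading, for replicate 9 against the 24 h arrays. A gene's value and its P call are those of 1 probe set, that of highest mean, unless others are named. In the text below, values listed for the groups follow the order replicates 8, 9 and 13 at 9 days, against replicates 7, 8 and 9 at 24 h, and are log2 intensities.

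**Figure D1:**
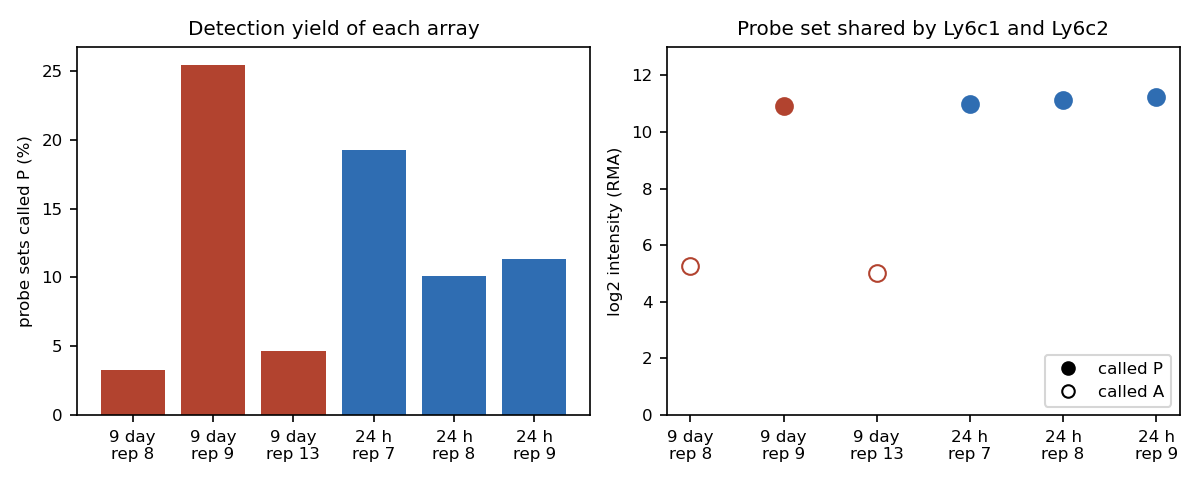
Left, percent of probe sets called P on each array, with the 9 day arrays in red and the 24 h arrays in blue. Right, log2 intensity of the Ly6c1 and Ly6c2 probe set, filled where called P and open where called A. Replicate 9 stands at 25.5% and 10.92, and replicates 8 and 13 stay under 5% with the Ly6C probe set called A.

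With all 3 arrays most of the genes tested read lower at 9 days, a direction that the entry rule favoured. Genes entered the test with a P call on at least 2 of the 3 arrays of either group, which 3123 genes had. Of these, 2072 passed through the 24 h group only, 278 through the 9 day group only and 773 through both. In a limma model of 21 arrays, 102 genes (3.27%) passed adjusted p under 0.05, with 4 higher at 9 days (0.128%) and 98 lower (3.14%), and 808 had an unadjusted p under 0.05. The groups did not overlap for 598 of the genes tested (19.1%) and for 99 of those called. The median log2 difference over all genes tested was -1.87, with 604 genes above 0 and 2519 below (80.7%). Entry only through the 24 h group favoured a higher reading there without fixing it. Of the 7 kidney tubule genes that entered so, 1 lay above 0. With no filter on detection the median was 0.04 over 18194 genes, and with P on 2 arrays of any of the 8 groups it was -0.16 over 8341 genes.

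The direction of the calls changed with the scale. With the deposited signals in place of the RMA values 63 genes passed, 15 higher and 48 lower, at a median of -0.94. Quantile normalization over the arrays modelled gave 8 higher and 99 lower at a median of -1.46. Centring each array on its median over the genes tested, a set selected by detection, gave 68 higher and 2 lower at a median of 0.84. It shared 6 of its calls with the RMA values. Centring below uses the median of the genes in the reading given. List values below are therefore read against the median of all genes, and list counts 3 against 3 against the 80.7% below 0 and 3.14% called lower. The count also moved with single arrays. Without replicate 9 of the 9 day group 756 genes passed. Without 9 day replicate 8 the count was 21, and without 9 day replicate 13 it was 11. Leaving out 24 h replicate 7, 8 or 9 gave 28, 20 and 35. With both arrays of low yield left out and the genes tested unchanged, limma called 1 gene, 208 had an unadjusted p under 0.05, and the median was 0.05. Yield and time cannot be told apart in the 3 against 3 comparison for a gene that is absent on those arrays alone. Of the 98 genes called lower, 70 were called P on replicate 9 and 95 lay below the range of the 24 h arrays there. The model that chose these genes held replicate 9 and the same 24 h arrays. The choice thus favoured such readings, and the count is no separate check of the fall.

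Only 4 genes rose in the 3 against 3 comparison. Klf4, a zinc finger transcription factor that promotes monocyte differentiation, was at 11.29, 10.87 and 8.84 at 9 days, all P, against 8.09 (P), 4.30 (A) and 6.26 (A) at 24 h. All 9 day values lay above all 24 h values, and the difference was 4.11 ± 1.08 (SE, adjusted p = 0.0437). Fam120a, a scaffold protein that binds RNA, was at 10.52, 8.57 and 10.90, all P, against 5.56 (P), 4.81 (M) and 2.45 (A). It differed by 5.72 ± 1.23 (adjusted p = 0.0231). Tmem109, a membrane protein of the endoplasmic and nuclear membranes, was at 10.64, 8.99 and 10.46, all P, against 4.39 (A), 5.21 (A) and 6.62 (P), a difference of 4.62 ± 1.24 (adjusted p = 0.0467). Atmin, a cofactor of the DNA damage kinase ATM, was at 8.02 (A), 7.49 (P) and 6.52 (P), against 3.84, 4.23 and 4.69, none P. The difference was 3.09 ± 0.81 (adjusted p = 0.0437), with 2 of the 3 arrays of 9 days called P. Klf4 averaged 10.41 in the Low gate at 9 days, the gate of the macrophages with least Ly6C.

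These 4 calls rested on particular arrays and probe sets. Leaving out 1 array in turn kept Klf4 and Fam120a called only without 9 day replicate 9 or without 24 h replicate 7, with the highest adjusted p at 0.157 for Klf4 and 0.108 for Fam120a. Tmem109 and Atmin stayed called only without 9 day replicate 9 (highest adjusted p 0.167 and 0.141). Differences kept their sign in all 6 of these models, from 3.16 to 5.05 for Klf4, 4.81 to 6.44 for Fam120a, 4.12 to 5.23 for Tmem109 and 2.75 to 3.50 for Atmin. With replicate 9 as the only 9 day array the differences were 4.65 for Klf4 (adjusted p = 0.0780), 4.29 for Fam120a (0.184), 3.58 for Tmem109 (0.287) and 3.24 for Atmin (0.0563). The other probe sets of Fam120a differed by 1.25 to 1.82 and that of Klf4 by 0.34, and all were below the detection filter. Those of Atmin differed by 0.05 and -0.19, also below it. A second probe set of Tmem109 passed the filter and differed by 2.85, and the other 3 differed by 0.18 to 1.10.

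Fam120a and the gene called lower by the largest difference lie head to head on chromosome 13. Fam120a spans bases 48879216 to 48968060 on the minus strand and Fam120aos, a long noncoding RNA, spans bases 48968112 to 48969905 on the plus strand (GRCm38.p6), with 51 bases between the starts. Fam120aos was at 3.75, 3.12 and 2.73, none P, against 11.28, 12.84 and 11.90, all P. The difference was -8.81 ± 2.08 (adjusted p = 0.0327), about 448-fold lower at 9 days. Such a bound sets the undetected arrays no lower than the lowest value called P on each, which was 1.22 to 2.20, so it lies close to the fitted fold and leaves out the spread between arrays. It was called without 9 day replicate 9 and in none of the other 5 models that leave out 1 array (highest adjusted p 0.131), and the Low gate of 9 days averaged 10.00. The neighbours thus read in opposite directions in this comparison, also on replicate 9 alone (4.29 for Fam120a and -8.88 for Fam120aos). They did not do so in other groups. In the Low gate of 9 days Fam120a averaged 10.06, close to Fam120aos. In the Intermediate gate of sham mice Fam120a averaged 9.83 and Fam120aos 10.48. Whether the shared bases have a part in the difference was not tested. Both promoter windows are shown because they share the bases between the genes. Each holds 250 bases before the start and 50 after it, from RefSeq, on the gene's own strand, at chr13:48968011-48968310 (minus) for Fam120a and chr13:48967862-48968161 (plus) for Fam120aos, with the 51 bases between the starts in capitals.
Fam120a: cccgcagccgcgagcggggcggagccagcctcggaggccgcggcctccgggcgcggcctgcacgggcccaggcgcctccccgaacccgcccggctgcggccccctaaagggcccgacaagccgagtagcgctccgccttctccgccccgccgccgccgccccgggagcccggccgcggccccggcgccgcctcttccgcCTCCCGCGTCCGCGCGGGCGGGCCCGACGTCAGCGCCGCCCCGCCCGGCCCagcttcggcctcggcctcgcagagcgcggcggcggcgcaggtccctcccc
Fam120aos: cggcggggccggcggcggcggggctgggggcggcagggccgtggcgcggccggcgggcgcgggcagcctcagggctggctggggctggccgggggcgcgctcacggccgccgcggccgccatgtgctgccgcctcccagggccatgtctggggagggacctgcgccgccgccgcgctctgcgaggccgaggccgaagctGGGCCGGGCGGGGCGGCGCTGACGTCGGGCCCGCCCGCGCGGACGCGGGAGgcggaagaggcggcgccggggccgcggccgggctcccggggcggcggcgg

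**Figure D2:**
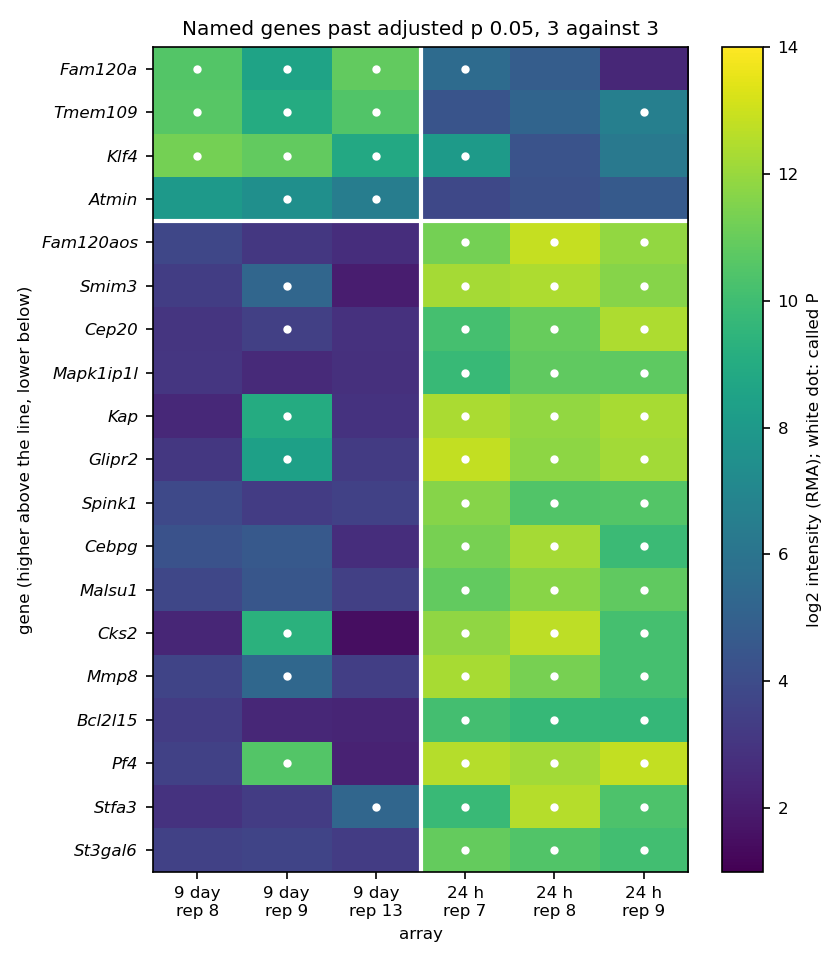
Log2 intensity (RMA, colour) of the genes called 3 against 3 with groups that do not overlap, by array, with the 9 day arrays left of the 24 h arrays. The 4 genes called higher stand above the line and the 15 largest lower calls below it. A white dot marks a P call. Kap, Pf4, Glipr2 and Cks2 are called P on 9 day replicate 9, and Bcl2l15, Mapk1ip1l, Malsu1 and St3gal6 on no 9 day array by the probe set shown.

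Among the 98 genes that fell, 23 were called P on all 24 h arrays and on no 9 day array by the probe set used, and 18 of them on no 9 day array by any probe set. Bcl2l15, a BCL2 family member, was at 3.30, 2.45 and 2.37 at 9 days, against 10.09, 9.69 and 9.68 at 24 h. Its difference was -7.11 ± 0.80 (adjusted p = 1.5e-04), about 138-fold lower, and adjusted p stayed at 0.00151 or less with any 1 array left out. Mapk1ip1l, which encodes a proline-rich protein, was at 3.03, 2.55 and 2.81, against 9.77, 10.83 and 10.80. It fell by 7.67 ± 1.16 (adjusted p = 0.00451). Malsu1, an assembly factor of the mitochondrial ribosome, fell by 7.22 ± 1.26 (adjusted p = 0.00783), and St3gal6, a sialyltransferase that helps build selectin ligands, fell by 7.01 ± 1.26 (0.00852). Mapk1ip1l, Malsu1 and St3gal6 also kept their calls with any 1 array left out (highest adjusted p 0.0256, 0.0474 and 0.0474). The second probe set of Mapk1ip1l differed by 1.01, was called P on 1 array of 9 days and was below the detection filter. Other probe sets of St3gal6 differed by -4.00 to 0.05, and 1 of them was called P on 1 array of 9 days. Over the 98 genes called lower, 53 had other probe sets, and for 32 of these at least 1 other read lower by 1 or more. Bcl2l15 was also lower on replicate 9 alone, by 7.37 ± 0.85 on the log2 scale (adjusted p = 0.00143).

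Other genes that fell had more variable support. Smim3, a small membrane protein, was at 3.36, 5.27 (P) and 2.06, against 12.27, 12.41 and 11.62, a difference of -8.53 ± 1.51 (adjusted p = 0.00783). Its call was lost only without 9 day replicate 13 (adjusted p = 0.0523). Cebpg, a C/EBP transcription factor, differed by -7.28 ± 1.64 (adjusted p = 0.0292) on the probe set used, which was called P on no 9 day array. Its other probe sets differed by 0.54 and 0.75, and 1 of them stood at 7.62 (P) on replicate 9, against 4.79, 2.55 and 4.00 at 24 h, so the probe sets disagree. Spink1, a secreted trypsin inhibitor, differed by -7.31 ± 1.51 (adjusted p = 0.0190), about 159-fold lower. Without 9 day replicate 9 or 24 h replicate 9 Cebpg and Spink1 were called, and in the other 4 models they were not (highest adjusted p 0.129 and 0.0737). Cep20 (-8.06 ± 1.87, adjusted p = 0.0319), a centrosomal protein, Glipr2 (-7.35 ± 1.56, 0.0214) and Cks2 (-7.17 ± 1.60, 0.0283), a subunit of cell cycle kinases, had 9 day values of P on replicate 9 alone, at 3.47, 8.39 and 9.30. Cep20 and Glipr2 were called only without 9 day replicate 9, and Cks2 also without 24 h replicate 9 (highest adjusted p 0.118, 0.108 and 0.146).

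Motifs bound by myeloid transcription factors were counted in the promoters of the genes called lower. Searched on both strands of windows of 300 bases, the C/EBP-type core TTGCNNAA stood in 11 of 85 windows of the called genes (12.9%; 73 of the 98 genes had a window), against 9.06% for the genes tested and 10.8% for all promoters in the RefSeq table. The PU.1-type core AGGAAGT stood in 16 windows (18.8%), against 10.9% and 9.35%, and the KLF-type core CCACACCC in 5 (5.88%), against 4.01% and 3.56%. These are counts of letters, with no test. The windows of Bcl2l15 (chr3:103832446-103832745, plus strand) and of Mmp8 (chr9:7558179-7558478, plus strand), a neutrophil collagenase, are shown because they hold several matches, in capitals, for genes that fell. The 3 matches in Bcl2l15 are the PU.1-type, C/EBP-type and KLF-type cores in that order, and the 2 in Mmp8 are the PU.1-type and C/EBP-type cores.
Bcl2l15: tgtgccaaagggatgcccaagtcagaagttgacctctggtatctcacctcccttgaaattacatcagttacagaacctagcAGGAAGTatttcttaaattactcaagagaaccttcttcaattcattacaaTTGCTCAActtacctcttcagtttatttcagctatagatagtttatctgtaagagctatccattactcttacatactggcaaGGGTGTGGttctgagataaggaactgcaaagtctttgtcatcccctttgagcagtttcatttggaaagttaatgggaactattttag
Mmp8: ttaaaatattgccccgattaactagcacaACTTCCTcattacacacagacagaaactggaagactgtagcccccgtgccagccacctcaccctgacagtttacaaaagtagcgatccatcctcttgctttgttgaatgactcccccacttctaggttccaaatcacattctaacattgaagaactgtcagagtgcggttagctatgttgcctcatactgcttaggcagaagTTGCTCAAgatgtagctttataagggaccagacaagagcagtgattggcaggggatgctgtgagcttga

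Granule and secreted proteins of neutrophils leaned to 24 h. All 14 tested genes of the neutrophil list lay below 0 in the 3 against 3 comparison and 3 of them were called (median -2.40, with -1.87 over all genes). On replicate 9 alone 12 of 14 lay below 0 with none called (median -1.14, with 1.19 over all genes, and 2 at unadjusted p under 0.05). After centring the medians were 0.31 and -3.22, with 0.84 and -0.89 over all genes, so its sign 3 against 3 flipped. It stood below the median of all genes in both readings with the RMA values, after centring and with the deposited signals (-3.44 with -0.94 over all genes, and -2.18 with 1.53), and after quantile normalization only on replicate 9 (-1.12 with 0.74, against -1.30 with -1.46 for 3 against 3). Mmp8 was at 3.67 (A), 5.35 (P) and 3.39 (A) at 9 days, against 12.32, 11.31 and 10.15 at 24 h, all P. It fell by 7.12 ± 1.32 (adjusted p = 0.0102), and only without 9 day replicate 13 was it not called (adjusted p = 0.0530). Il1r2, the decoy receptor for interleukin 1, was at 4.52 (A), 10.98 (P) and 5.31 (A), against 12.52, 12.10 and 12.63, and differed by -5.48 ± 1.31 (adjusted p = 0.0327). It was called in the model without 9 day replicate 9 and in none of the other 5 (highest adjusted p 0.159).

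Neutrophil transcripts nevertheless remained readable on the arrays of low yield. The summed linear level of the list ran from 39606 to 60216 at 9 days and from 97756 to 112530 at 24 h. The groups did not overlap. This was not particular to the neutrophil list. Classical monocyte sums did not overlap either (14017 to 47320, against 53092 to 57560). Those of some other lists did, such as oxidative phosphorylation (38901 to 83341, against 79034 to 132990). The neutrophil granule genes Mpo, Elane and Ltf were called P on no array. S100a8, an alarmin of neutrophils and monocytes, was at 13.94, 14.08 and 14.22 at 9 days, against 14.65, 14.74 and 14.65 at 24 h. Ngp, a neutrophil granule protein, was at 10.21 (P), 4.76 (A) and 12.50 (P), against 11.01, 12.07 and 10.71. Camp, the antimicrobial peptide precursor, was at 11.06, 8.18 and 11.07, against 10.02, 11.46 and 10.29. Both granule genes read lowest on replicate 9, and neither passed the test (adjusted p 3 against 3 of 0.435 for Ngp and 0.786 for Camp). The neutrophil list as a whole went the other way among the 9 day arrays. Its sum was highest on replicate 9, at 60216, against 39606 and 53598 on replicates 8 and 13. On replicate 9 12 of its 18 genes with a probe set were called P, against 7 and 8. Tissue macrophage genes called P on replicate 9 were 15 of 22, against 4 and 3 on replicates 8 and 13. On the 24 h arrays they were 15, 5 and 11. The part of neutrophils in the differences was not tested.

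Stefins, small inhibitors of cysteine cathepsins, include members that are abundant in neutrophils and inflammatory monocytes. Of the 4 tested, 4 lay below 0 and 2 were called (median -4.00, or -1.30 after centring). For replicate 9 alone 3 of 5 lay below 0 with 1 called (median -0.12, or -2.20 after centring). Stfa3 was at 2.92 (A), 3.30 (A) and 5.32 (P) at 9 days, against 9.82, 12.57 and 10.36 at 24 h, a difference of -7.07 ± 1.36 (adjusted p = 0.0142). It was not called without 9 day replicate 8 or 24 h replicate 8 (highest adjusted p 0.0574). Stfa2l1 was called P on all 6 arrays, at 7.34, 11.90 and 8.36, against 13.18, 13.73 and 13.31. It fell by 4.21 ± 1.08 (adjusted p = 0.0428), by 1.5 on replicate 9 (adjusted p = 0.481), and was called in the model without 9 day replicate 9 alone (highest adjusted p 0.174 in the others). Cstb and Cst3, which are expressed in many cell types, had adjusted p = 0.205 and 0.830. Stefin genes of this cluster are near-identical copies, so probes may read more than 1 of them. The windows at chr16:36455343-36455642 (Stfa3, minus strand) and chr16:36156561-36156860 (Stfa2l1, plus strand) show the likeness of the promoters, with a KLF-type core in capitals in Stfa3 and none of the 3 cores in Stfa2l1.
Stfa3: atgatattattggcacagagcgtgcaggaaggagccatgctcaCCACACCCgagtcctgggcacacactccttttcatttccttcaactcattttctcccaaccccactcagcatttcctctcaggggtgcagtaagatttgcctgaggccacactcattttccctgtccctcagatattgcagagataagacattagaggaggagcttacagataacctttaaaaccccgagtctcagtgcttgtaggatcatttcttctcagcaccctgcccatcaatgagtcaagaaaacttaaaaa
Stfa2l1: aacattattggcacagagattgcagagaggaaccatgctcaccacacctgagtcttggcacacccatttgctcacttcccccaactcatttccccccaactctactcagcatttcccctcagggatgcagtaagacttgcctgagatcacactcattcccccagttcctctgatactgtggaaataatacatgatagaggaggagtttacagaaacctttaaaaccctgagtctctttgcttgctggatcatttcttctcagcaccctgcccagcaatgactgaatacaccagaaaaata

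Chemokine ligands also read lower than the median gene at 9 days. Of the 14 CC and CXC chemokines tested, 12 lay below 0 and 4 were called lower (median -3.92, or -1.22 with 0.84 over all genes after centring). Ccl4, a ligand that draws monocytes and lymphocytes, was at 3.88 (A), 10.84 (P) and 5.71 (A) at 9 days, against 12.22, 12.79 and 12.11 at 24 h, and fell by 5.57 ± 1.36 (adjusted p = 0.0327). Cxcl3, a ligand of the neutrophil receptor Cxcr2, was at 3.10 (A), 9.75 (P) and 2.71 (A), against 11.38, 13.40 and 10.69, and fell by 6.64 ± 1.77 (adjusted p = 0.0464). Both were called without 9 day replicate 9 and in none of the other 5 models (highest adjusted p 0.159 and 0.215). On replicate 9 alone the median was -0.23, with 1.19 over all genes, or -2.31 with -0.89 after centring. Over the 10 chemokines called P on replicate 9 and on all 24 h arrays, 7 lay below the 24 h range on replicate 9 and 0 above it. Over all 1338 genes called P so, 37.7% lay below and 18.5% above.

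The other pair of called chemokines are products of platelets. Ppbp was at 3.04, 3.05 and 6.01 at 9 days, none P, against 8.77, 9.94 and 7.79 at 24 h, all P. It fell by 4.80 ± 1.16 (adjusted p = 0.0327), about 27.9-fold, and by 5.79 on replicate 9 alone. Pf4, which macrophages also express, was at 3.52 (A), 10.51 (P) and 2.25 (A), against 12.53, 12.20 and 12.81, a difference of -7.09 ± 1.73 (adjusted p = 0.0327), and -2.01 on replicate 9 (0.609). The Low gate of 9 days averaged 11.81 for Pf4 and 4.11 for Ppbp. Ppbp was called without 9 day replicate 9 or 13 (highest adjusted p 0.126 otherwise) and lost its call on replicate 9 alone with any 24 h array left out. Pf4 was called without 9 day replicate 9 alone (highest adjusted p 0.174 otherwise). Of 10 platelet and erythrocyte markers with a probe set, 0, 2 and 0 were called P on the 9 day arrays and 2 on each 24 h array, with summed linear levels of 243 to 1738 at 9 days and 5825 to 7588 at 24 h. The platelet integrin gene Itga2b was called P on no array. Whether platelets took part in the difference was not tested.

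Genes of lipid storage, arginine use and hypoxia held 1 or 2 calls each, where 3.14% of all genes tested were called lower and 80.7% lay below 0. At unadjusted p under 0.05 in limma stood 28.6% of lipid handling and 25% of hypoxia and glycolysis genes, close to the 25.9% of all genes. For arginine metabolism it was 66.7% of 6 genes, all of which entered through the 24 h group only. Hilpda, a lipid droplet protein induced by hypoxia, was at 3.35 (A), 7.61 (P) and 5.08 (A) at 9 days, against 10.70, 13.05 and 10.90 at 24 h, a difference of -6.20 ± 1.22 (adjusted p = 0.0156). Dgat1, which makes triglyceride, fell by 5.86 ± 1.21 (adjusted p = 0.0190). They were 2 calls among 14 lipid handling genes tested (median -2.17, or 0.53 after centring), 12 of which lay below 0. On replicate 9 the differences were -3.94 for Hilpda (adjusted p = 0.165) and -3.40 for Dgat1 (0.218). The list had 10 of 18 above 0 there (median 0.54). Of the 8 called P on both sides, on replicate 9 and on all 24 h arrays, 6 lay below the 24 h range and 0 above it. Over all such genes the shares were 37.7% and 18.5%. Hilpda and Dgat1 were called without 9 day replicate 9, 24 h replicate 7 or 24 h replicate 9 (highest adjusted p 0.0718 and 0.108 otherwise). Arg2, the mitochondrial arginase, was at 2.85 (A), 10.11 (P) and 3.78 (A), against 11.97, 12.51 and 11.31. It fell by 6.35 ± 1.37 (adjusted p = 0.0231), the 1 call among 6 arginine metabolism genes, all below 0 (median -4.14, or -1.43 after centring). Arg1, the cytosolic arginase of repair macrophages, was at 5.39 (A), 11.19 (P) and 3.33 (A), against 10.40, 10.55 and 10.87, and was not called (adjusted p = 0.127). With replicate 9 as the only array of 9 days the differences were -1.82 for Arg2 (adjusted p = 0.365) and 0.58 for Arg1 (0.909), and 5 of 8 members of the list lay above 0 (median 0.36, none called).

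In the hypoxia and glycolysis list 15 of 16 lay below 0 with 1 call (median -2.25, or 0.46 after centring). Replicate 9 alone went the other way, with 15 of 22 above 0 and none called (median 0.58), where 7 of the 22 were tested only through that array. Of the 11 called P on both sides 4 lay above the 24 h range and 1 below (median 0.13). Over all such genes the shares were 18.5% and 37.7%. Bnip3, a mitophagy receptor induced by hypoxia, fell by 4.48 ± 1.17 (adjusted p = 0.0437). Olr1, the scavenger receptor for oxidised LDL, fell by 5.33 ± 1.36 (adjusted p = 0.0393), and Mgst1, a membrane glutathione transferase of classical monocytes, fell by 6.34 ± 1.27 (0.0174). On replicate 9 the differences were -2.00 for Bnip3, -1.66 for Olr1 and -3.63 for Mgst1 (adjusted p = 0.461, 0.586 and 0.191). Arg2 and Olr1 were called without 9 day replicate 9 or 24 h replicate 9 (highest adjusted p 0.122 and 0.187 otherwise), Mgst1 also without 24 h replicate 7 (0.0737), and Bnip3 without 9 day replicate 9 alone (0.180). The matrix remodelling list had 13 of 13 below 0 (median -3.68, or -0.97 after centring), and Mmp8 was its 1 call. Replicate 9 alone gave 9 of 19 above 0 (median -0.09). Of 9 called P on both sides 5 lay below the 24 h range and 1 above it, with 37.7% and 18.5% over all such genes.

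**Figure D3:**
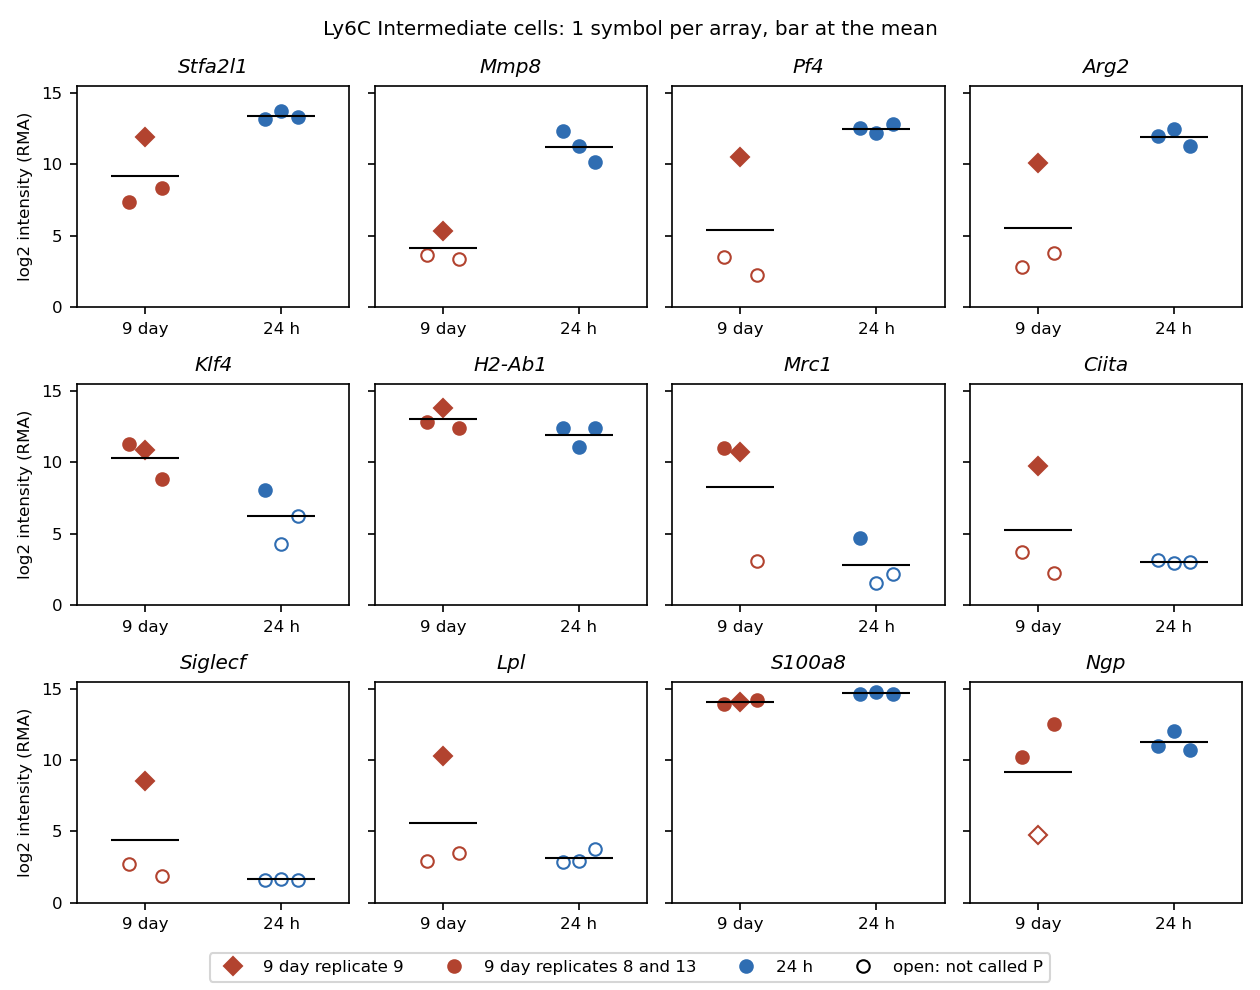
Log2 intensity of 12 genes on each array, 9 day arrays left and 24 h arrays right, with a bar at the group mean. The diamond is 9 day replicate 9 and open symbols are arrays not called P. Mmp8 and Stfa2l1 stand lower at 9 days on all 3 arrays, Klf4 higher on all 3, and Ciita, Siglecf and Lpl are called P on replicate 9 only.

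Replicate 9 alone gave a different picture, as far more genes were detected on it. A gene was tested where replicate 9 or at least 2 of the 24 h arrays called it P, which 6293 genes met, 3448 of them only through replicate 9. In the limma model without the other 9 day arrays 159 genes (2.53%) passed adjusted p under 0.05, 150 higher (2.38%) and 9 lower (0.143%), and 1129 had an unadjusted p under 0.05. The lone array is assumed there to vary as the replicates of the other groups do. The median difference was 1.19, and 4374 genes (69.5%) lay above 0. Entry only through replicate 9 favoured a higher reading there without fixing it. Of the 2 T cell genes tested 1 entered so, and 0 lay above 0. Of the genes called higher, 132 were called P on no 24 h array, 115 of them by any probe set. Other probe sets existed for 82 of the 150 genes. For 30 of these at least 1 other read higher by 1 or more, and for 41 at least 1 other was called P on replicate 9. Over the 2845 genes with a P call on at least 2 of the 24 h arrays, 1380 lay above 0 on replicate 9 (median -0.07), a reading chosen after the values were seen. After centring on the median of the genes tested the median difference was -0.89, and with the deposited signals it was 1.53. These scales kept few or none of the calls. Leaving out 24 h replicate 7, 8 or 9 gave 102, 87 and 67 calls.

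The genes called higher on replicate 9 are described by role. Ciita, the master activator of MHC class II genes, was at 9.73 (P) on replicate 9, against 3.18, 2.94 and 2.99 at 24 h, none P. The difference was 6.70, about 104-fold. Siglecf, a sialic acid receptor of eosinophils and alveolar macrophages, was at 8.52 (P), against 1.61, 1.70 and 1.61, a difference of 6.88. This was about 96.1-fold with the undetected arrays set as for Fam120aos. Replicates 8 and 13 were called A for both, at 3.74 and 2.28 for Ciita and at 2.73 and 1.88 for Siglecf. The Low gate array of the same mouse number was at 9.46 for Ciita and 2.11 for Siglecf. Lpl, the lipoprotein lipase of foam cells and tissue macrophages, differed by 7.15, about 142-fold. Ciita, Siglecf and Lpl kept their calls with any 1 of the 24 h arrays left out (highest adjusted p 0.0109, 0.00746 and 0.0435).

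Signalling and transcription genes came next. Ptger4, a prostaglandin E2 receptor, had the largest difference, 9.29 or about 625-fold, and was not called with any 24 h array left out. Its second probe set differed by 1.41 on replicate 9. Egr2, a transcription factor of alternatively activated macrophages, differed by 7.63 ± 1.61 (adjusted p = 0.0260), and by 8.14 on its second probe set. It was called only without 24 h replicate 8 (highest adjusted p 0.0554). The Low gate array of the same number stood at 12.87 for Ptger4, 9.91 for Egr2 and 11.24 for Lpl. Hsp90b1, a chaperone of the endoplasmic reticulum, differed by 8.37 ± 1.69 (adjusted p = 0.0213), and was lost without 24 h replicate 9 (0.0502). Rnmt (7.78, adjusted p = 0.00716), which caps mRNA, Uri1 (7.42, 0.00444), a prefoldin, Cnot11 (7.25, 0.00205), a subunit of the CCR4-NOT deadenylase, and Kbtbd6 (6.99, 0.00444), a ubiquitin ligase adaptor, kept their calls with any 1 of the 24 h arrays left out. The other probe sets did not follow for Rnmt (-2.80 to -0.12 on replicate 9), Uri1 (-0.49 and -0.16) and Cnot11 (-0.63 and -0.34), and with the mean of probe sets the differences were 1.03, 2.26 and 2.09. Kbtbd6 had no other. Tifab (7.36, 0.0329) and Hibch (7.25, 0.0449) lost theirs each time, and their second probe sets differed by 0.95 and -0.74.

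Few members of any list were called higher on replicate 9. Beside Lpl of the 18 lipid handling genes, Egr2 of the 21 AP-1 and immediate early genes and Siglecf of the 2 eosinophil and mast cell genes tested, they were Ciita of the 12 MHC class II genes, Iigp1 (6.07, adjusted p = 0.0147) of the 23 interferon-stimulated genes, Cxcl14 (5.53, 0.0349) of the 21 chemokines, Tgfb1 (4.99, 0.0209) of the cytokine and matrix lists, Axl (5.49, 0.0247), a receptor for dying cells, of the scavenger list, Mcm5 (5.62, 0.00738), a subunit of the replicative helicase, of the cell cycle list, and Itgax (5.57, 0.0255), the integrin CD11c, of the complement and dendritic cell lists. The tissue macrophage list had no call among its 15 genes. Of these, Iigp1, Tgfb1 and Mcm5 kept their calls with any 24 h array left out, Axl and Itgax only without 24 h replicate 8, and Cxcl14 in none of the 3. Blnk, listed as a B cell adaptor and also found in macrophages, differed by 5.99 (adjusted p = 0.0388) and lost its call with any 24 h array left out (highest adjusted p 0.0777), while Pax5, Ighm and Cd22 were called P on no array.

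A total of 9 genes were called in both models, which share replicate 9 and the 24 h arrays, and all were lower at 9 days. Besides Bcl2l15, Mapk1ip1l, Stfa3 and Ppbp these were Wfdc21, Cd33, Lipg, Med30 and Acot1. Wfdc21, a secreted protein with a whey acidic domain, was at 5.71 (A), 8.77 (P) and 8.65 (P) at 9 days, against 13.64, 13.82 and 13.71 at 24 h. It fell by 6.01 ± 0.97 (adjusted p = 0.00525) with 3 arrays and by 4.96 ± 0.97 (0.0203) with replicate 9. Cd33, a sialic acid receptor of myeloid cells, was at 4.27 (A), 4.38 (P) and 4.69 (A), against 9.80, 9.92 and 9.68, and fell by 5.35 ± 0.94 (0.00783) and by 5.42 ± 1.16 (0.0277). For both genes all 3 arrays of 9 days read below all 24 h arrays. Lipg, an endothelial-type lipase, fell by 6.42 (adjusted p = 0.00498), Med30, a Mediator subunit, by 6.79 (0.00783) and Acot1, an acyl-CoA thioesterase, by 6.19 (0.00783). In the replicate 9 model with 1 of the 24 h arrays left out in turn, Wfdc21, Lipg and Bcl2l15 stayed called each time, Mapk1ip1l not without 24 h replicate 9, Acot1 only without 24 h replicate 7, and Cd33, Med30, Stfa3 and Ppbp in none of the 3 models.

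The reading least open to detection limits keeps genes called P on replicate 9 and on all 24 h arrays. It held 1338 genes, with a median of -0.26 (-0.82 with the deposited signals, 0.14 after centring), of which 248 (18.5%) lay above and 504 (37.7%) below the range of the 24 h arrays on replicate 9. Adjusted over these genes alone limma called none, with 42 at unadjusted p under 0.05. The lists below are described by such counts, to be read beside these shares, with no test.

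Antigen presentation, macrophage and lysosomal genes called P on both sides lay mostly above the 24 h range on replicate 9. Of 6 MHC class II genes in this reading 5 lay above the 24 h range and 1 below (median 1.64, or 0.71 with the deposited signals and 2.04 after centring). H2-Ab1, the class II beta chain, was at 12.83, 13.82 and 12.41 at 9 days, against 12.38, 11.08 and 12.38 at 24 h, all P, so the groups did not overlap, with replicate 13 close to the 24 h arrays, and the difference of 1.08 ± 0.99 did not pass the test (adjusted p = 0.487). H2-Aa, the alpha chain, was at 11.06, 12.85 and 11.48, against 11.86, 9.11 and 11.90, and Cd74, the invariant chain, at 11.26 (P), 14.49 (P) and 9.64 (A), against 11.51, 9.76 and 12.11. For these the groups overlapped, and replicate 9 alone stood above the 24 h arrays. All 4 tissue macrophage genes in this reading lay above the 24 h range (median 1.64, or 1.52 and 2.04). Of the 15 tested on replicate 9, 5 entered only through that array, which favours a higher reading there. The 10 with P on at least 2 of the 24 h arrays all lay above 0 (median 1.98, with -0.07 over all genes that entered so). None of the 15 was called, and 5 had an unadjusted p under 0.05.

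Mrc1, the mannose receptor, was at 11.01 (P), 10.72 (P) and 3.08 (A) at 9 days, against 4.67 (P), 1.56 (A) and 2.18 (A) at 24 h. It differed by 5.46 ± 2.04 (adjusted p = 0.114) with 3 arrays and by 7.91 (0.101) on replicate 9, so 2 of 3 arrays stood above every 24 h array without a call. Cx3cr1, the fractalkine receptor, was at 9.95 on replicate 9, against 7.58 (P), 3.74 (A) and 3.36 (A) (adjusted p = 0.0798), and Apoe, the lipid carrier, at 8.75 (P), 12.38 (P) and 7.67 (A), against 10.38 (P), 4.59 (A) and 9.17 (P). The resident macrophage genes Timd4, Lyve1, Vsig4 and Mertk were called P on none of the 6 arrays. Of 16 lysosomal genes called P on both sides 13 lay above and 1 below the 24 h range (median 1.34, or 0.57 and 1.74). Ctsz, a cathepsin, was at 9.57, 12.60 and 11.27, against 10.50, 8.79 and 9.57, all P. No lysosomal gene was called in either model (4 of 21 lower at unadjusted p under 0.05 with 3 arrays, 4 of 29 higher on replicate 9), and the 3 against 3 median of -1.59 turned to 1.11 after centring.

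Interferon-stimulated and alternative activation genes also differed between readings. On replicate 9 alone 11 of the 23 interferon-stimulated genes entered only through that array, which favours a higher reading there. The 12 with P on at least 2 of the 24 h arrays had 11 above 0 (median 2.43, with -0.07 over all genes that entered so), and of 3 called P on both sides 2 lay above the 24 h range and 1 below. With 3 arrays the median was -0.54 over 14 genes, or 2.17 after centring, with none called (1 at unadjusted p under 0.05). Igtp, an interferon-induced GTPase, was at 6.47 (A), 10.18 (P) and 9.61 (P), against 6.26, 3.95 and 5.14, none P (3.64 ± 1.57, adjusted p = 0.154). Of 16 alternative activation genes tested on replicate 9, 9 entered only through it. The other 7 had 5 above 0 (median 2.70), and of 3 called P on both sides 1 lay above the 24 h range and 1 below. None of the 16 was called, and 6 had an unadjusted p under 0.05. Chil3, a chitinase-like protein also abundant in neutrophils and monocytes, went the other way, at 8.43, 11 and 9.37, against 13.36, 13.10 and 13.36 (-3.67 ± 1.10, adjusted p = 0.0663).

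**Figure D4:**
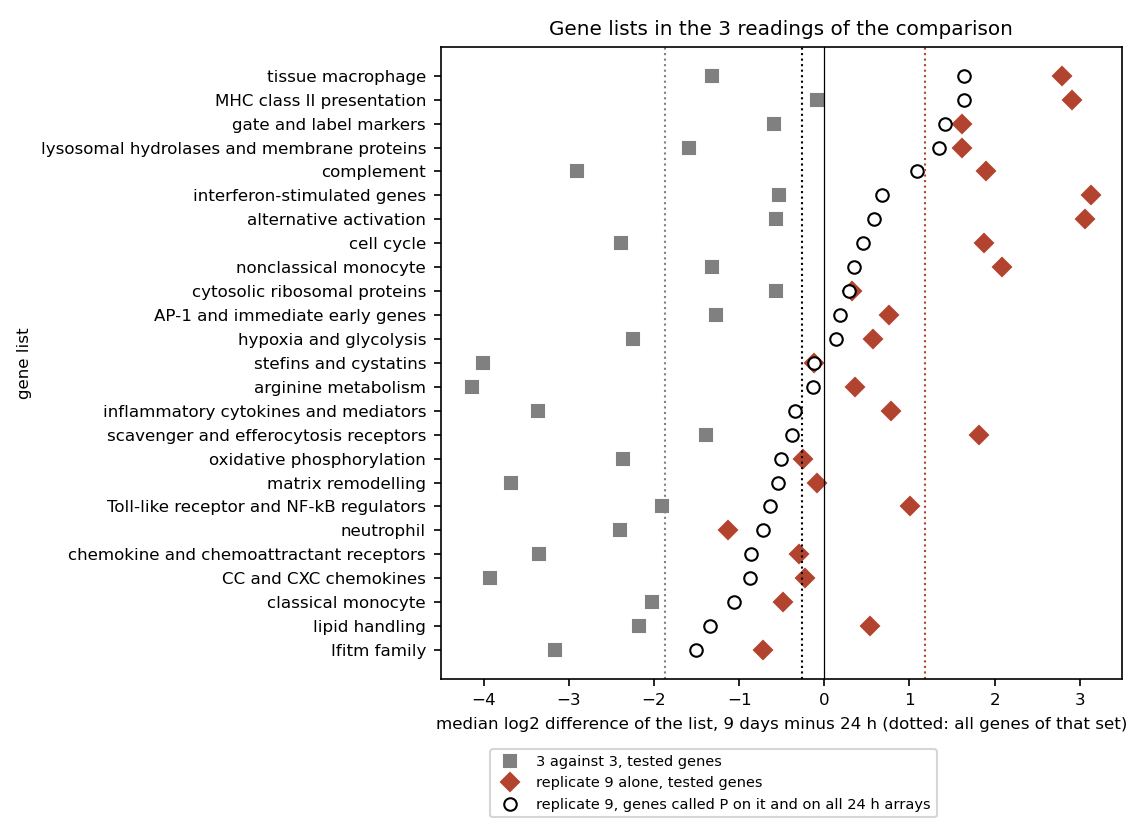
Median log2 difference (9 days minus 24 h) of each gene list with 3 arrays against 3 (grey squares), on replicate 9 alone (red diamonds) and on replicate 9 over genes called P there and on all 24 h arrays (open circles). Dotted lines give the medians over all genes, -1.87, 1.19 and -0.26. Tissue macrophage, MHC class II and lysosomal lists lie at 1.34 to 1.64 in the last reading, and lipid handling, Ifitm and classical monocyte lists at -1.50 to -1.06, below the line of all genes.

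Monocyte, receptor and mediator genes differed in how far they stood from the median of all genes. Classical monocyte genes had 14 of 16 below 0 (87.5%, with 80.7% over all genes) with 2 calls, Mmp8 and Mgst1 (median -2.02 with -1.87 over all genes, or 0.68 with 0.84 after centring). For replicate 9 alone 7 of 16 lay above 0, and of the 10 called P on both sides 6 lay below the 24 h range and 3 above it (median -1.06, or -0.65 after centring). Ccr2 was called P on 1 of the 24 h arrays and stood above their range on replicate 9, at 9.33 (P), 12.08 (P) and 7.21 (A), against 10.26 (P), 8.06 (A) and 6.95 (M), and was not called (adjusted p = 0.591 with 3 arrays and 0.236 on replicate 9). Chemoattractant receptors had 8 of 9 below 0 (median -3.35, or -0.65 after centring), with none called and 6 at unadjusted p under 0.05, and on replicate 9 alone 7 of 11 below 0 with none called (median -0.29). C5ar1, the receptor of the complement fragment C5a, was at 4.32 (A), 13.36 (P) and 3.24 (A), against 13.12, 13.91 and 13.28 (-6.46 ± 1.82, adjusted p = 0.0557), within the range of the 24 h arrays on replicate 9. Inflammatory cytokines had 10 of 11 below 0 (median -3.36, or -0.65 after centring), none called and 6 at unadjusted p under 0.05. Replicate 9 alone gave 11 of 17 above 0 (median 0.78), where 6 of the 17 were tested only through it. Of 8 called P on both sides 4 lay below the 24 h range and 1 above it, with 37.7% and 18.5% over all such genes. Acod1, which makes itaconate, was at 3.15 (A), 10.51 (P) and 1.57 (A), against 10.08, 12.50 and 10.55 (-5.97 ± 1.68, adjusted p = 0.0559).

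Respiratory chain genes read low mainly on the arrays of low yield. All 36 oxidative phosphorylation genes tested lay below 0 with 3 arrays (median -2.37, or 0.34 after centring), none called by limma and 7 at unadjusted p under 0.05. Replicate 9 alone had 18 of 37 above 0 (median -0.24). Of 28 called P on both sides 14 lay below the 24 h range and 3 above it (median -0.51, or -0.11 after centring). Over all such genes the shares were 37.7% and 18.5%. Atp5c1, a subunit of ATP synthase, was at 3.79 (A), 11.54 (P) and 4.93 (A), against 12.11, 12.05 and 12.33. Cytosolic ribosomal protein genes had 22 of 26 below 0 with 3 arrays (median -0.57, or 2.13 after centring) and 16 of 24 above 0 on replicate 9 among those called P on both sides (median 0.28, but -1.33 with the deposited signals). None was called in either model, and 0 had an unadjusted p under 0.05. Toll-like receptor and NF-kB regulators had 15 of 16 below 0 (median -1.91, or 0.80 after centring), none called and 4 at unadjusted p under 0.05 (25%), close to the -1.87, 0.84 and 25.9% of all genes tested. Replicate 9 alone gave 14 of 20 above 0 with none called (median 1.00, with 1.19 over all genes).

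Ifitm genes, interferon-induced membrane proteins that block viral entry, could be read on most arrays. Ifitm1, Ifitm2 and Ifitm3 were called P on all 6. Ifitm1 was at 12.11, 11.13 and 9.35 at 9 days, against 13.69, 13.57 and 13.87 at 24 h (-2.84 ± 0.96, adjusted p = 0.0869). Ifitm2 was at 7.37, 12.05 and 7.29, against 12.69, 12.91 and 12.69 (-3.86 ± 1.21, adjusted p = 0.0734). Both lay below the 24 h range on all 9 day arrays without passing the test. Ifitm3 was at 11.95, 13.46 and 5.83, against 12.88, 12.95 and 12.94, above the range on replicate 9. The family's median was -3.16 over 4 genes, or -0.45 after centring, with none called and 3 at unadjusted p under 0.05. Replicate 9 alone gave 3 of 5 below 0 with none called (median -0.72).

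Genes called P on all 3 arrays of 9 days numbered 254, of which 102 lay above 0 and 152 below, with 3 called higher and 1 lower (median -0.41). The called ones were Fam120a, Klf4, Tmem109 and Stfa2l1. Among the others nearest to a call, Ivns1abp, which binds influenza NS1 protein in human cells, was at 11.96, 7.01 and 11.24, against 6.35, 5.48 and 4.50 (4.63 ± 1.41, adjusted p = 0.0703). Usp7, a deubiquitinase, was at 10.45, 9.43 and 10.68, against 8.14, 7.78 and 8.88 (adjusted p = 0.193). Cybb, the catalytic subunit of the phagocyte NADPH oxidase, was at 9.75, 10.36 and 4.70, against 7.59 (P), 4.16 (A) and 4.35 (A) (adjusted p = 0.228). The groups did not overlap for Ivns1abp and Usp7, and replicate 13 of Cybb lay within the 24 h range. Eif5a, a translation factor, was at 9.42, 13.40 and 11.50, against 13.76, 13.81 and 13.55, and Fcer1g, the Fc receptor gamma chain, at 7.03, 12.86 and 9.76, against 12.96, 13.05 and 12.81 (adjusted p = 0.164 each). Both read lowest on the arrays of low yield. Of genes higher without a call, Keap1, the sensor of oxidative stress, was at 6.31 (P), 8.06 (P) and 3.86 (A), against 1.73, 2.71 and 2.56, none P (adjusted p = 0.0582), and was called on replicate 9 alone (5.73 ± 1.12, 0.020).

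Transcripts of other cell types also differed between the groups. Of 25 kidney tubule markers with a probe set, 0, 3 and 1 were called P on the 9 day arrays, against 14, 4 and 6 on the 24 h arrays, and their summed linear level ran from 568 to 893 at 9 days and from 4505 to 10390 at 24 h. Kap, an androgen-regulated protein of the proximal tubule, was at 2.52 (A), 8.98 (P) and 2.93 (A) at 9 days, against 12.33, 11.89 and 12.28 at 24 h, a difference of -7.36 ± 1.79 (adjusted p = 0.0327), called without 9 day replicate 9 and in none of the other 5 models (highest adjusted p 0.161). Umod, the protein of the thick ascending limb, was at 3.45, 2.94 and 2.36, none P, against 9.73 (P), 3.88 (A) and 7.34 (P) (adjusted p = 0.145). Lrp2 and Cubn, defining receptors of the proximal tubule, were called P on no array. Dendritic cell markers were called P on 1, 8 and 1 of 17 at 9 days, against 5, 1 and 2 at 24 h, with Flt3, Xcr1 and Zbtb46 on none. NK cell, T cell, B cell, endothelial, eosinophil and mast cell, and fibroblast markers gave 0 to 2 P calls per array each. The part of any of these cells in the differences was not tested.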

How the data were processed

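Expression was measured in CD11b+ kidney cells of the Ly6C Intermediate gate at 9 days and 24 h of reperfusion, with 3 arrays a group. The log2 values were made by the authors with RMA in Affymetrix Expression Console, per the submitters' processing notes, with no version given, and are relative intensities of probe sets after quantile normalization over the arrays. The signal intensities the authors deposited are linear, with a trimmed mean (2% at each end) near 500 on every array, by a method that the files do not name. The detection calls P, M and A are as deposited. The build and version behind the probe annotation are not given in the sources used here.

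Gene symbols came from the platform's annotation: 34958 of 45101 probe sets had 1 gene, 932 several and 9211 were not listed. Of several probe sets of a gene that of highest mean over the modelled arrays was kept, which left 18194 genes. A group-means model of 21 arrays in 8 groups was fitted with limma 3.58.1 in R 4.3.3 (13 residual and 5.30 prior degrees of freedom, median residual SD 1.94; 11, 3.41 and 1.60 without 9 day replicates 8 and 13). It left out 3 sham arrays that share 1 label and 1 array of reference RNA. Tests were two-sided, with Benjamini-Hochberg adjustment over all genes tested and calls at adjusted p under 0.05. Each ± beside a difference is the standard error of the model. The number of arrays limits the precision. The labels do not say that arrays of a group came from separate animals beyond their numbers, so p-values rest on the spread between arrays. That spread is pooled per gene over the 8 groups modelled, most of them outside the comparison, and takes no account of unequal spread between groups. With only the 6 arrays compared 0 genes were called. In the replicate 9 model the spread at 9 days was not measured.

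Genes were named by a rule: up to 15 called genes a direction of largest difference without overlap, those of smallest p where fewer than 10 passed, up to 4 members of a list by p, up to 10 a direction on replicate 9, and up to 10 a direction among those called P on all 9 day arrays. Members outside it, such as S100a8, Camp, Ctsz and Cd74, were chosen after their values were seen. The comparison, the gene lists and the tests were chosen with earlier results of these data known. Lists were described by counts and medians, with no test. On simulated data made from the real groups, changes of 2, 4, 6 and 8 on the log2 scale were put into 50 genes each. With 3 arrays against 3 (3123 genes) 4%, 22%, 74% and 88% were recovered, with 6 false calls. With replicate 9 alone (6293 genes) 0%, 20%, 34% and 54% were recovered, with 3 false calls.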

Additional observations from a re-analysis of the deposited data

How the results depend on the processing

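With 3 arrays against 3, the 102 calls became 63 with the deposited signals, 24 with no filter on detection, 307 with P on every array of a group, 32 with P on 2 arrays of any of the 8 groups, 0 with only the 6 arrays (456 at unadjusted p under 0.05), 620 with array weights, 247 with the share of P as a covariate and 10 without arrays of low yield. Quantile normalization (107), centring (70), the mean of probe sets (89) and a variance trend with a robust prior (75) stayed within 1.5 times, although centring turned the split to 68 higher and 2 lower. Leaving out 1 array gave 11 to 756 calls. On replicate 9 alone the 159 calls became 0 with the deposited signals (861 at unadjusted p under 0.05), 47 after quantile normalization, 2 after centring, 47 with P on 2 arrays of any of the 8 groups and 0 with only the 4 arrays (1323 at unadjusted p under 0.05), and lay at 175 with P on every array of a group and 225 with the mean of probe sets. Without one of the 24 h arrays the count ran from 67 to 102. Added after seeing the data, the filter on P on both sides gave 0 calls (42 at unadjusted p under 0.05), leaving out sham High replicate 1 gave 228, leaving out both 9 day arrays of low yield with the same genes gave 1, and counting P or M gave a difference in share of -2.47 percentage points in place of -2.42. The causes were not tested. No named gene that was called changed sign under the alternatives run. Over the named genes with 3 arrays, 1933 values kept their direction and their side of the threshold or moved by less than the spread, 278 lost the call, 201 gained it and 231 uncalled values moved by more than the spread. With replicate 9 alone these counts were 1042, 150, 17 and 139. Among list medians 570 stayed within the spread and 98 moved with 3 arrays, and 359 and 42 did on replicate 9.

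The groups share the replicate numbers 8 and 9, but the mice differ, and deviations of arrays with the same number correlated at 0.047 and -0.0018, so the numbers were not taken as pairs. With those numbers as a fixed replicate block 157 genes were called, and 107 with the animal as a random block. Limits are the number of arrays, the low yield of 2 of 3 arrays of 9 days, and log2 values near the background, where a P call can stand as low as 1.22.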
